A study of Mus musculus with 12 samples.

Results

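Stereocilia, the actin-filled protrusions of hair cells, are built and held by a small set of proteins, and 10 of their genes are described here. These are the tip motors Myo15, Myo3a and Myo3b, the tip regulators Eps8 and Eps8l2, the espins Espn and Espnl, the bundling proteins Fscn2 and Pls1, and the actin-binding protein gene Xirp2. They were chosen by symbol, not by a measured value, and make up 10 of the 29641 genes listed in either organ. All 10 were listed and passed the filter on low values in both organs. That filter kept genes reaching 1 CPM in 3 or more libraries out of 6, where CPM is a gene's reads scaled by the total of its library.

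The data are RNA-seq libraries of ribosome-bound RNA from the inner ear of newborn mice (postnatal day 0 to 1). All animals were homozygous for RiboTag (RiboTagHA/HA), an allele in which Cre recombinase switches a ribosomal protein to an HA-tagged form, and ribosomes of cells that have had Cre can be collected with an anti-HA antibody. Cre came from the Gfi1 locus, and the controls also carried it: heterozygotes were Gfi1Cre/+;RiboTagHA/HA and mutants Gfi1Cre/Cre;RiboTagHA/HA. Gfi1 encodes a zinc finger repressor of transcription that is active in hair cells and also in blood cells, so the tag can also reach other cells. The heterozygotes had lost 1 unmodified copy of Gfi1, and the number of Cre copies differed with genotype, so the effects of Cre dose and of Gfi1 loss cannot be told apart. Each genotype had 3 libraries of the cochlea, which serves hearing, and 3 of the vestibule, which serves balance, 12 in all. The series text calls the triplicates independent biological replicates, and the sources used here do not state how many animals stand behind a library. Cochlear libraries were made with NuGEN's Ovation Ultralow kit and vestibular libraries with the NEBNext Ultra Directional RNA kit, so kit and organ cannot be told apart.

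A stereocilium holds a core of parallel actin filaments with their growing ends at the tip. Crosslinkers (espin, fascin, plastin) bind neighbouring filaments together, while motors carry regulators of filament growth to the tip. Myosin 15 delivers the whirlin and EPS8 complex that lets stereocilia elongate, and the class III myosins carry the espins. Rows of graded height form the hair bundle, whose deflection opens the mechanotransduction channels, and many of these genes cause deafness or imbalance when lost. At birth bundles in the cochlea are still growing.

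The sequence just before the transcription start is shown for Myo15, Myo3a, Myo3b and Espnl: the motors whose values carry the results below, and the espin-family gene with the highest level per length. Each run is the 250 bases before the start given by RefSeq on GRCm38.p6, on the plus strand, 5′ to 3′. Capitals mark the letters CAGNTG or, on the other strand, CANCTG, the core of an E-box, which basic helix-loop-helix factors such as ATOH1 can bind. Myo15 (chr11:60469089-60469338) held 2 such matches, which began 231 and 82 bases before the start. Espnl (chr1:91321825-91322074) held 1, which began 57 bases before it, and Myo3a (chr2:22227253-22227502) and Myo3b (chr2:70038876-70039125) held none.
Myo15: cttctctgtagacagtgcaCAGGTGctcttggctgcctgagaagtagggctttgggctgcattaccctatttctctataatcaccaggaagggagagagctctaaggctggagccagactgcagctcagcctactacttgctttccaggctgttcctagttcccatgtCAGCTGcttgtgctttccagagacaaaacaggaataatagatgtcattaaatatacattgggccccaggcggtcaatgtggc
Myo3a: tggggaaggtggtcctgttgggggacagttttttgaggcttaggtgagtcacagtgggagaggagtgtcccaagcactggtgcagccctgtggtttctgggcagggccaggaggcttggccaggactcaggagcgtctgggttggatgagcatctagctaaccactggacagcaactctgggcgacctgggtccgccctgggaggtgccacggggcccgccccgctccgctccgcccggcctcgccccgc
Myo3b: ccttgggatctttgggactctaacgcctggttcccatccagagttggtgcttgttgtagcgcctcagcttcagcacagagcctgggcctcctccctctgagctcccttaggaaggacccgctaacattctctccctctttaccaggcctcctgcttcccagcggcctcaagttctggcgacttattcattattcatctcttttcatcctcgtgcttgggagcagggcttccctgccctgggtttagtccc
Espnl: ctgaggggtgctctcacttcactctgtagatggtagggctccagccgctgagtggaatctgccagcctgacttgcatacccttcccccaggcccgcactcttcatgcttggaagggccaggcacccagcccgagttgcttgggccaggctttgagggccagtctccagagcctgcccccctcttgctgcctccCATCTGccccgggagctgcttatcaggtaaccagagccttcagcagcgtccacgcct
RefSeq promoter entries were matched for 9 of the 10 genes, all but Eps8. At the first listed start, 5 of these 9 held CAGNTG on either strand, against 44.8% of all 32841 starts in the table. The letters AATC or GATT, the core of the motif that GFI1 binds, were in 5 of 9, against 69.0% of all starts. These matches are a description of the letters in these windows.

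Gfi1 itself checked the labels. In the cochlea it stood at 165, 106 and 126 CPM in heterozygous libraries 1, 2 and 3 and at 75.1, 64.3 and 69.1 CPM in mutant libraries. In the vestibule the values were 534, 450 and 483 CPM in heterozygotes and 236, 198 and 208 CPM in mutants. Every mutant library lay below every heterozygous library of its organ, and the sources used here do not state which exons the Cre allele removes. Cochlear library totals were 7531518 to 9363796 reads, and vestibular totals 18951026 to 29370267. A read was therefore worth 0.107 to 0.133 CPM and 0.0340 to 0.0528 CPM, and the lowest value of any of the 10 genes rested on 82 reads in the cochlea and 133 in the vestibule. The tissue's hair cell markers were present in both organs: 12 markers summed to 5589 to 6841 CPM in cochlear and 8832 to 10109 CPM in vestibular heterozygotes. Markers of other cells were present as well. The sum of 13 macrophage markers was 2444.5 to 3059.1 CPM in cochlear and 7645.7 to 9658.4 CPM in vestibular heterozygotes. Both cochlear replicate 3 libraries were low in mitochondrially encoded reads, and both vestibular replicate 1 libraries had more reads outside the listed genes than the other 4.

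**Figure D1:**
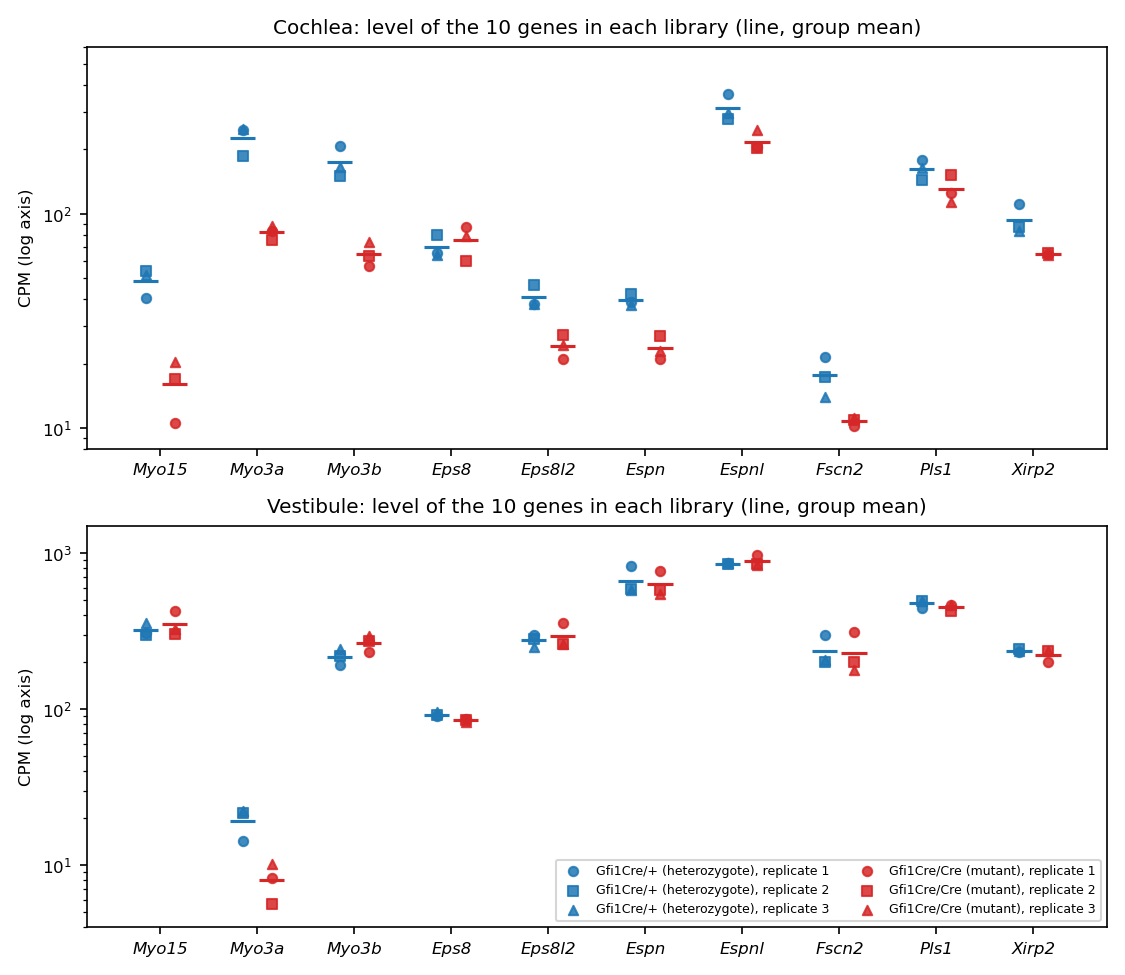
Level of the 10 genes in each library in CPM on a log axis, cochlea above and vestibule below; point shape gives the replicate number and the line the group mean of 3 libraries. In the cochlea the 3 mutant libraries sit below the 3 heterozygous ones for 8 of 10 genes, and in the vestibule for Myo3a and Eps8.

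The cochlear comparison asks how these ribosome-bound transcripts differ when both copies of Gfi1 carry Cre. The 3 tip motors fell most, to mean levels of 16.0 ± 4.96 CPM for Myo15, 81.9 ± 6.26 CPM for Myo3a and 64.9 ± 8.64 CPM for Myo3b (mean ± SD, n = 3), and Eps8l2 and Espn fell by less. Of the 10 genes 5 were lower and 0 higher at a Benjamini-Hochberg adjusted p under 0.05 in limma, where 2.52% of the 17985 tested genes were lower and 1.90% higher. Genes past that threshold are said to be called. The mutant libraries lay wholly below the heterozygous ones for 8 of 10, against 7.77% of tested genes. With the replicate number as a block, since same-numbered libraries deviated together, 8 of 10 were lower, against 4.31% of tested genes. Without both replicate 3 libraries 6 of 10 were lower, beside 386 of 17180 tested genes. Without heterozygote replicate 2 the count was 3, beside 349 of 17694 tested genes. Leaving out mutant replicate 1 also gave 3, beside 309 of 17702 tested genes. The median log2 change of the 10 was -0.68, and that of all tested genes 0.05. In bulk RNA of this kind, fewer tagged cells and less RNA per cell cannot be told apart.

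Myo15 encodes the motor that carries elongation factors to the tips (chromosome 11, 60469339 to 60528369, plus strand, GRCm38). Its cochlear levels were 40.4, 53.9 and 51.9 CPM in heterozygotes and 10.6, 17.0 and 20.4 CPM in mutants. The highest mutant library was below the lowest heterozygous library, and the counts behind the mutant values were 85, 132 and 176 reads. The change was -1.58 on the log2(CPM + 1) scale (SE 0.22, 95% interval -2.05 to -1.11, limma adjusted p = 0.000563). It was the largest of the 10 changes with all 6 libraries. Without mutant replicate 1 Myo15 stood at -1.33 and Myo3a at -1.46, and without heterozygote replicate 2 at -1.51 and -1.59. Myo15 stayed called under each of the 17 alternatives run for the cochlea, with adjusted p from 0.000171 to 0.00598 when single libraries were left out.

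The 2 class III myosins fell alongside it. Myo3a (chromosome 2, 22227503 to 22618252, plus strand) stood at 245, 186 and 249 CPM in heterozygotes and at 83.1, 75.1 and 87.4 CPM in mutants. Myo3b (chromosome 2, 70039126 to 70429198, plus strand) stood at 207, 150 and 165 CPM in heterozygotes and at 57.0, 63.6 and 74.1 CPM in mutants. Neither gene's groups came near each other, and the mutant values were tight. The changes were -1.45 for Myo3a (SE 0.14, interval -1.75 to -1.15, limma adjusted p = 2.89e-05) and -1.40 for Myo3b (SE 0.15, interval -1.72 to -1.08, limma adjusted p = 7.55e-05). The ratio of Myo3a to Myo3b within a library was 1.19, 1.24 and 1.51 in heterozygotes and 1.46, 1.18 and 1.18 in mutants, so the groups overlapped. Myo3a over Myo15 overlapped as well, at 6.07, 3.46 and 4.81 in heterozygotes and 7.82, 4.41 and 4.29 in mutants.

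The tip regulators Eps8 and Eps8l2, which cap and bundle actin filaments, differed in their calls in the cochlea, where Eps8l2 fell and Eps8 was not called. Eps8 (chromosome 6, 137477245 to 137654876, minus strand), which works with MYO15 at the tips of the tallest row, stood at 65.7, 79.8 and 64.3 CPM in heterozygotes and 86.6, 60.3 and 78.6 CPM in mutants. These groups overlapped, and the change was 0.09 (SE 0.16, interval -0.24 to 0.43, limma adjusted p = 0.927). Eps8l2 (chromosome 7, 141338880 to 141363020, plus strand), needed to maintain adult stereocilia, stood at 38.1, 46.6 and 38.1 CPM in heterozygotes and 21.1, 27.1 and 24.3 CPM in mutants. It fell by 0.74 on the log2 scale (SE 0.16, limma adjusted p = 0.0162). Leaving out heterozygote replicate 2 or mutant replicate 1 ended that call, with adjusted p up to 0.0944. Of its exon bases 32.2% are shared with a gene on the other strand, and the sources used here do not state the strand setting of the counting, so the value of Eps8l2 is uncertain. Within libraries the ratio of Eps8 to Eps8l2 was 1.72, 1.71 and 1.69 in heterozygotes and 4.10, 2.22 and 3.23 in mutants. The mutant ratios were all above the heterozygous ones, by 0.86 on the log2 scale, at the smallest p that 3 against 3 libraries allow (exact permutation test, two-sided p = 0.1; adjusted over 12 ratios, 0.4).

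The espins crosslink the core filaments and are cargo of the class III myosins. Espn (chromosome 4, 152120331 to 152152371, minus strand) was measured at 38.9, 42.2 and 37.4 CPM in heterozygotes and at 21.0, 27.0 and 22.8 CPM in mutants. The groups did not overlap, and Espn fell by 0.72 on the log2 scale (SE 0.16, limma adjusted p = 0.0147). The call ended when heterozygote replicate 1, heterozygote replicate 2 or mutant replicate 1 was left out, with values up to 0.0836. Espnl (chromosome 1, 91322075 to 91348306, plus strand), the espin-like cargo of MYO3 motors, had 364, 278 and 295 CPM in heterozygotes and 204, 202 and 245 CPM in mutants. Its groups did not overlap either, and its change of -0.52 (SE 0.14) missed the threshold in limma (adjusted p = 0.0505; 0.00161 with the replicate block). Espnl was also called without heterozygote or mutant replicate 3, and without both replicate 3 libraries (adjusted p = 0.0172). It was called with edgeR (0.0325), DESeq2 (0.00626), TMM or median-of-ratios scaling, a pseudocount of 4 and a filter of 5 CPM. A pseudocount of 0.25, no filter and the fit of all 12 libraries did not call it (limma adjusted p from 0.0532 to 0.0970). It was not called when replicate 1 or 2 of either genotype was left out (limma adjusted p from 0.0628 to 0.233).

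The remaining core genes missed the threshold in limma with all 6 libraries and no block. Fscn2, a fascin that bundles filaments along the shaft (chromosome 11, 120361534 to 120368168, plus strand), rested on the fewest cochlear reads of the 10. Its levels were 21.5, 17.4 and 14.0 CPM in heterozygotes and 10.2, 11.0 and 11.1 CPM in mutants, without overlap. The change was -0.64 (SE 0.20, limma adjusted p = 0.125; 0.0296 with the replicate block), and DESeq2 called it (0.0475). Xirp2, whose protein binds actin and takes part in the repair of stereocilia (chromosome 2, 67446002 to 67526614, plus strand), stood at 111, 86.8 and 82.8 CPM in heterozygotes. In mutants it was at 64.9, 65.9 and 63.9 CPM, so the groups were apart. Its change was -0.51 (SE 0.14, limma adjusted p = 0.0582, and 0.00341 with the replicate block). Xirp2 was called without heterozygote replicate 3 (limma adjusted p = 0.0299), in the fit of all 12 libraries (0.0316), with edgeR (0.0488) and with DESeq2 (0.0219). With any other single library left out it was not called (limma adjusted p from 0.105 to 0.259). Pls1, which encodes plastin 1, an abundant crosslinker of stereocilia (chromosome 9, 95752642 to 95845311, minus strand), was at 178, 143 and 163 CPM in heterozygotes and 125, 151 and 114 CPM in mutants. Mutant replicate 2 exceeded heterozygote replicate 2, and the change of -0.31 (SE 0.14, interval -0.61 to -0.01) was not called without or with the block (limma adjusted p = 0.377 and 0.103).

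As a sum, the 10 genes made up 1085 to 1309 CPM in cochlear heterozygous and 684 to 742 CPM in mutant libraries. Within that sum the share of Eps8 was 5.02% to 7.36% in heterozygotes and 8.60% to 12.7% in mutants, and that of Pls1 13.2% to 14.0% and 15.4% to 21.6%. The share of Myo3a was 17.2% to 21.5% in heterozygotes and 10.7% to 12.2% in mutants, and that of Myo3b 13.8% to 15.8% and 8.33% to 9.99%. The share of Myo15 was 3.09% to 4.97% and 1.55% to 2.75%. Espnl (25.4% to 27.8%, then 28.9% to 33.0%) and Xirp2 (7.13% to 8.49%, then 8.62% to 9.48%) had higher shares in mutants although their CPM was lower, so a higher share does not mark a level that was kept. None of these 7 shares overlapped between the genotypes, and those of Eps8l2, Espn and Fscn2 did. Hair cell markers moved the same way as the motors: their sum was 3623 to 4357 CPM in mutants, below the 5589 to 6841 CPM of heterozygotes, and 6 of 12 were lower (10 with the block), with a median of -0.87. The sum of neuron markers was 1034 to 1137 CPM in heterozygous and 1882 to 2063 CPM in mutant libraries, with 6 of 11 higher (8 with the block). Nefl and Nefm made up most of that sum in every library. Of all genes tested in the cochlea 2.52% were lower and 1.90% higher, and with the block 775 and 757 of 17985. The part of the hair cell and neuron markers in the changes of the 10 genes was not tested. The genotypes overlapped in the sum of supporting cell markers (heterozygotes 2519 to 2567 CPM, mutants 2487 to 2732 CPM) and of mesenchyme markers (1863 to 2273 and 2007 to 2304 CPM). Macrophage markers overlapped too (2444.5 to 3059.1 and 2970.7 to 3658.1 CPM), with 2 of 13, Lyz2 and Fcgr3, called higher (3 with the block). Xirp2 is also a gene of striated muscle. Of 13 muscle markers 6, Acta1 and Ckm among them, were under 1 CPM in every cochlear library, while Ttn (22.9 to 28.6 CPM) and Neb (18.8 to 39.9 CPM) made up most of the list's level. The sum was 56.9 to 64.7 CPM in heterozygous and 57.4 to 73.0 CPM in mutant libraries. In the vestibule the muscle markers summed to 19.1 to 25.0 and 16.7 to 24.9 CPM.

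**Figure D2:**
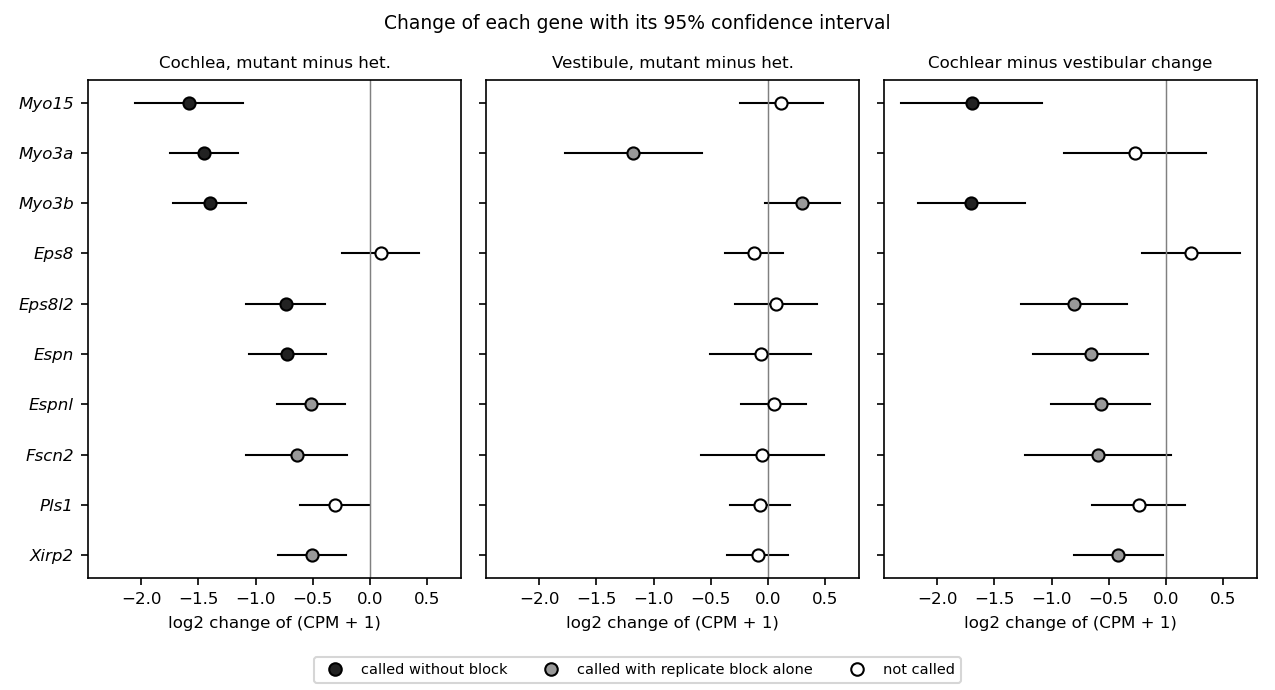
Change of each of the 10 genes (point) with its 95% interval (line) on the log2(CPM + 1) scale, for the cochlea, for the vestibule, and for the cochlear minus the vestibular change. Dark points were called in limma without a replicate block, grey points with the block alone; Myo15, Myo3a and Myo3b lie farthest left in the cochlea, and in the vestibule Myo3a alone lies below -1.

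The vestibular comparison asks the same of the balance organs, where the levels of these genes were mostly close between genotypes and Myo3a stood apart. None of the 10 was called by limma (0 higher, 0 lower), where 1.09% of the 15595 tested genes were lower and 2.41% higher. At an unadjusted p under 0.05 limma gave 2511 of those genes and, of the 10, Myo3a. With the replicate block Myo3a was lower and Myo3b higher, where 12.8% of genes were lower and 10.5% higher. The mutant libraries lay below the heterozygous ones for 2 of 10 genes, Myo3a and Eps8, against 11.6% of genes. The median change of the 10 was -0.06, as was that of all tested genes.

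Myo3a rested on few vestibular reads, 133 in the lowest library. It stood at 14.4, 21.5 and 22.2 CPM in heterozygotes and at 8.28, 5.65 and 10.2 CPM in mutants. The groups did not overlap, and the change was -1.18 (SE 0.26, interval -1.78 to -0.58). In limma this fell just short of the threshold (adjusted p = 0.0511) and passed it with the replicate block (0.000550). It was called in 8 of 17 settings, including those without heterozygote replicate 1 (adjusted p = 0.0293) and without both replicate 1 libraries (change -1.40, adjusted p = 0.0288).

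Myo3b, its closest relative, had a change of the opposite sign in the same libraries. It had 191, 218 and 242 CPM in heterozygotes and 232, 275 and 295 CPM in mutants, with mutant replicate 1 inside the heterozygous range. The change was 0.30 (SE 0.14, interval -0.03 to 0.63, limma adjusted p = 0.366), and with the replicate block it was called higher (0.00899). Within every same-numbered pair the mutant library was above its heterozygous partner. The ratio of Myo3a to Myo3b was 0.0753, 0.0986 and 0.0914 in heterozygotes and 0.0358, 0.0206 and 0.0346 in mutants, lower in every mutant library. The log2 ratio differed by -1.58 (exact permutation test, two-sided p = 0.1; adjusted over 12 ratios, 0.4). Myo3a over Myo15 was likewise lower in every mutant library, at 0.0194, 0.0188 and 0.0315 against 0.0465, 0.0718 and 0.0624, a log2 difference of -1.40 (exact permutation p = 0.1, adjusted 0.4). In the cochlea neither ratio separated the genotypes.

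Myo15 did not separate the vestibular genotypes. It stood at 309, 299 and 355 CPM in heterozygotes and 428, 301 and 324 CPM in mutants, and mutant replicate 1 was the highest. The change was 0.11 (SE 0.16, interval -0.25 to 0.48, limma adjusted p = 0.803), and -0.06 without both replicate 1 libraries. Eps8 was 90.0, 91.9 and 95.2 CPM in heterozygotes and 86.4, 85.3 and 82.2 CPM in mutants, a change of -0.12 (SE 0.11, limma adjusted p = 0.657). The groups did not overlap, with the lowest heterozygous library at 90.0 CPM and the highest mutant library at 86.4 CPM. Eps8l2 had 299, 281 and 251 CPM in heterozygotes and 357, 260 and 260 CPM in mutants, with overlap.

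For Espn and Fscn2 the vestibular replicate 1 libraries stood highest in both genotypes. Espn was 830, 588 and 580 CPM in heterozygotes and 772, 582 and 549 CPM in mutants, so that both replicate 1 libraries were the highest. Fscn2 showed the same order, at 297, 200 and 207 CPM in heterozygotes and 310, 201 and 178 CPM in mutants. These are the 2 libraries with the most reads outside the listed genes, 0.684% and 0.729% of their totals, and its part in their levels was not tested. The genotype changes were -0.07 for Espn (SE 0.19, interval -0.51 to 0.38) and -0.05 for Fscn2 (SE 0.23, interval -0.59 to 0.49), with signs that flip between settings.

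The other 3 genes were nearly level. Espnl was 857, 852 and 857 CPM in heterozygotes and 971, 853 and 840 CPM in mutants. Pls1 was 445, 491 and 490 CPM in heterozygotes and 465, 428 and 464 CPM in mutants. Xirp2 was 233, 244 and 235 CPM in heterozygotes and 201, 235 and 234 CPM in mutants. Each overlapped between genotypes, with intervals of -0.23 to 0.33 for Espnl, -0.33 to 0.19 for Pls1 and -0.36 to 0.18 for Xirp2 on the log2 scale. The sum of the 10 genes was 3287 to 3565 CPM in heterozygous and 3225 to 3831 CPM in mutant libraries.

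Other cells' markers did shift in the vestibule. The sum of mesenchyme markers was 2411 to 2951 CPM in heterozygous and 1340 to 1770 CPM in mutant libraries, with a median log2 change of -0.75. Of its 10 markers 2 were lower, and all 10 with the replicate block. Over all 15595 genes tested in the vestibule 1.09% were lower and 2.41% higher, and 12.8% and 10.5% with the block. Hair cell markers summed to 10770 to 11355 CPM in mutants, above the 8832 to 10109 CPM of heterozygotes. The largest gains in mean CPM were those of Myo6 (1895 in heterozygotes, 2677 in mutants) and Rasd2 (248 and 751). Otof, the marker with the highest level (4770 and 4582 CPM), Calb2 and Tmc1 had lower means in mutants. Of the 12 markers, 2 were higher (6 higher and 1 lower with the block), the calcium buffer gene Pvalb (1.56, SE 0.13) and Rasd2 (1.59, SE 0.12). The sum of neuron markers was 1363 to 1534 CPM in heterozygous and 2269 to 2337 CPM in mutant libraries. Most of it came from Nefl (means of 397 CPM in heterozygotes and 650 CPM in mutants) and Nefm (936 and 1557 CPM). Of the 10 neuron markers tested, 3 were higher, Nefl, Nefm and Elavl4, and 1 lower, Ntrk2 (5 and 1 with the block). The part of these shifts in the values of the 10 genes was not tested.

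The difference between the organs was tested as an interaction over the 12 libraries, the cochlear minus the vestibular change. A kit effect that shifts a gene alike in all libraries of an organ drops out of this difference, while one on fold changes would not. Myo15 and Myo3b fell in the cochlea and not in the vestibule, with differences of -1.70 for Myo15 (SE 0.29, limma adjusted p = 0.00338) and -1.70 for Myo3b (SE 0.22, limma adjusted p = 0.000484). These were 2 of the 10 genes, and 2.43% of the 14674 genes tested in both organs had a called negative difference and 0.709% a positive one. Both calls held under each of the 23 alternatives run. For Myo3a the difference was -0.27 (SE 0.29, interval -0.89 to 0.35, limma adjusted p = 0.760), so a difference between the organs was not detected.

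The other 7 differences were not called. They ran from -0.80 for Eps8l2 (SE 0.22, limma adjusted p = 0.0610) to 0.22 for Eps8 (adjusted p = 0.712), with a median over the 10 of -0.58 and over all genes of 0.11. With the replicate block 7 of the 10 had a called negative difference, where 6.43% of genes did. The 5 added were Eps8l2 (adjusted p = 0.000693), Espn (0.00122), Espnl (0.0129), Fscn2 (0.0310) and Xirp2 (0.0471). Espn was also called without vestibular heterozygote replicate 1 (adjusted p = 0.0468). Pls1 (-0.24), Eps8 and Myo3a were called in neither fit.

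**Figure D3:**
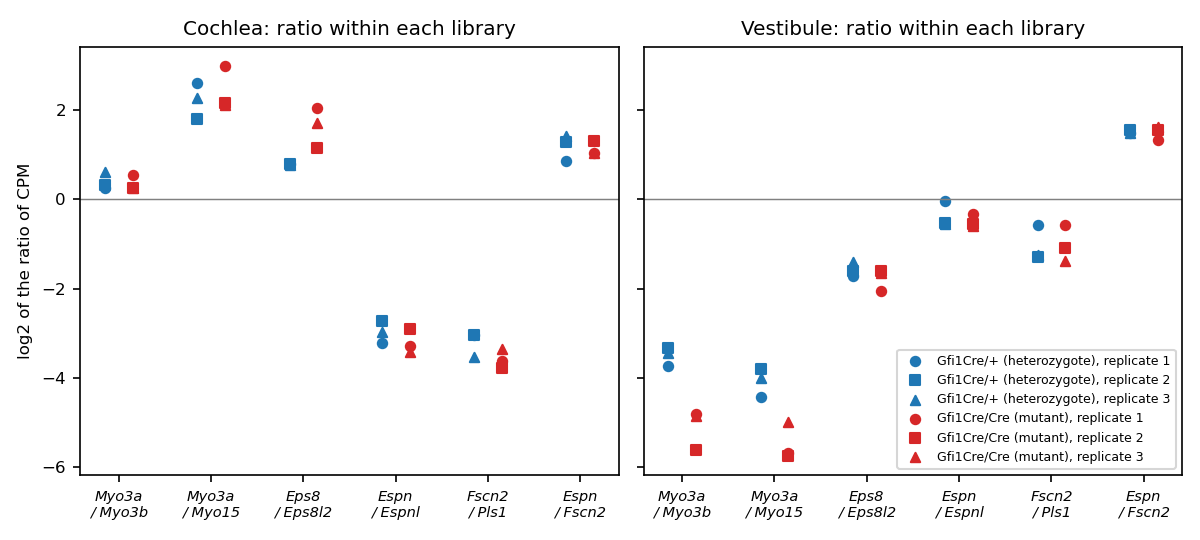
Ratio of 2 genes within each library as log2 of the ratio of their CPM, cochlea left and vestibule right; colour gives genotype and point shape the replicate number. Eps8 over Eps8l2 is higher in the 3 cochlear mutant libraries, and Myo3a over Myo3b and over Myo15 is lower in the 3 vestibular mutant libraries, while the other pairs overlap.

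Levels can be set against each other only per length, here as CPM per kilobase of annotated exons. In cochlear heterozygotes Espnl was highest at 57.4 ± 8.33 CPM per kb, ahead of Pls1 at 41.5 ± 4.43. Myo3a (28.6 ± 4.44) and Myo3b (24.7 ± 4.16) came next and overlapped. Fscn2, Xirp2 and Eps8l2 followed at 8.35, 7.81 and 7.62 CPM per kb, each overlapping its neighbour, then Eps8 at 5.66, Espn at 4.77 and Myo15 at 3.82. In cochlear mutants the same pair of genes led, Espnl at 39.9 ± 4.43 and Pls1 at 33.5 ± 4.90 CPM per kb, now overlapping. Myo3a (10.3) and Myo3b (9.22) again overlapped, Eps8 held the fifth place at 6.08, and Myo15 stayed last at 1.25 ± 0.389 CPM per kb.

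The vestibular order was another one, and kit and organ cannot be told apart in it. In vestibular heterozygotes Espnl led at 157 ± 0.556 CPM per kb, and Pls1 (122 ± 6.75), Fscn2 (111 ± 25.4) and Espn (80.5 ± 17.2) formed a run in which neighbours overlapped. Eps8l2 stood at 51.5, Myo3b at 30.8 and Myo15 at 25.2, the last 2 overlapping, then Xirp2 at 19.8 and Eps8 at 7.48. Myo3a was last at 2.43 ± 0.543 CPM per kb, and at 1.01 ± 0.288 in mutants, whose order was the same. Myo3a thus held the third place in the cochlea and the last in the vestibule, in both genotypes.

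Partners and relatives of these genes were followed through lists of their own. Of 15 partners at the tip (whirlin, the GPSM2 and G protein module, capping proteins, the tip link) 3 fell in the cochlea and 0 rose, beside 2.52% and 1.90% of all tested genes, with a median of -0.30. These were Cdh23 (-1.77, SE 0.19) and Pcdh15 (-0.72, SE 0.13), the cadherins of the tip link, and Baiap2l2 (-1.54, SE 0.25), which maintains the transducing rows. Whrn, the whirlin that rides on MYO15, was not called in the cochlea (-0.30, SE 0.20, limma adjusted p = 0.687) or the vestibule (-0.32, SE 0.22, adjusted p = 0.552). With the block 7 of 15 were lower in the cochlea, beside 4.31% of tested genes.

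In the vestibule none of the 15 was called without the block, at a median of -0.08. Pcdh15 was at 101, 145 and 162 CPM in heterozygotes and 191, 260 and 284 CPM in mutants, without overlap (0.85, SE 0.21, limma adjusted p = 0.0773; 2.04e-06 with the block). Baiap2l2 was at 49.0, 30.0 and 34.3 CPM in heterozygotes and 27.7, 19.3 and 20.3 CPM in mutants (-0.72, SE 0.22, limma adjusted p = 0.153; 0.000543 with the block). With the block 2 of 15 were higher and 2 lower, near the 10.5% and 12.8% of all tested genes. The change differed between the organs for Cdh23 (difference -1.99, SE 0.27, limma adjusted p = 0.000627) and for Pcdh15 (-1.58, SE 0.27, adjusted p = 0.00326). Gpsm2 (-0.66, SE 0.17, adjusted p = 0.0497) was also called for its difference, which was lost when any single library was left out.

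Among 29 genes of actin and its regulators in the bundle and the cuticular plate, 3 fell in the cochlea and 0 rose. Of all tested genes 2.52% fell and 1.90% rose. The list's median change was -0.01. Grxcr1 (-1.29, SE 0.15) and Grxcr2 (-1.11, SE 0.20), glutaredoxin-domain proteins needed for normal bundles, stayed called whichever library was left out. Lmo7 (-0.68, SE 0.14), a protein of the cuticular plate, missed the threshold when heterozygote replicate 1 or mutant replicate 2 was left out (up to 0.0659). The actins were level: Actb changed by 0.09 (SE 0.13) and Actg1, whose reads can be split with near-identical copies, by 0.07 (SE 0.14). With the block 8 of 29 were lower and 0 higher in the cochlea, where 4.31% of tested genes were lower. In the vestibule 0 of 29 were called, and with the block 7 were higher and 7 lower, where 10.5% and 12.8% of tested genes were. The block thus called a larger share of all genes in the vestibule, and these counts are not compared between the organs. The change of Grxcr1 differed between the organs (difference -1.72, SE 0.20, limma adjusted p = 0.000230). It was at 40.6, 48.2 and 47.8 CPM in vestibular heterozygotes and 63.3, 59.9 and 61.5 CPM in mutants. Tprn and Elmod1 also had a called negative difference, 3 of the 29 in all, where 2.43% of genes did.

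Of 9 other myosins of hair cells, 2 fell in the cochlea, Myo1h (-1.41, SE 0.26) and Myo7a (-0.71, SE 0.14), the motor at the upper tip link and also 1 of the hair cell markers. With the block 3 of the 9 were lower and 1 higher there, where 775 and 757 of the 17985 tested genes were. Without the block 2.52% of tested genes were lower. None of the 9 was called in the vestibule, at a median of 0.02. With the block 3 were higher and 2 lower, where 10.5% and 12.8% of tested genes were. Myo6, the motor at the base of stereocilia, changed by -0.47 (SE 0.17, limma adjusted p = 0.188) in the cochlea and by 0.51 (SE 0.19, adjusted p = 0.235) in the vestibule, and with the block it was called in both, lower in the first and higher in the second (0.00916 and 0.00103). The fits for the 2 organs share no library. In the interaction without the block 2 of the 9, Myo7a and Myo1h, had a called negative difference, where 2.43% of genes did. Myo6 was not called there.

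**Figure D4:**
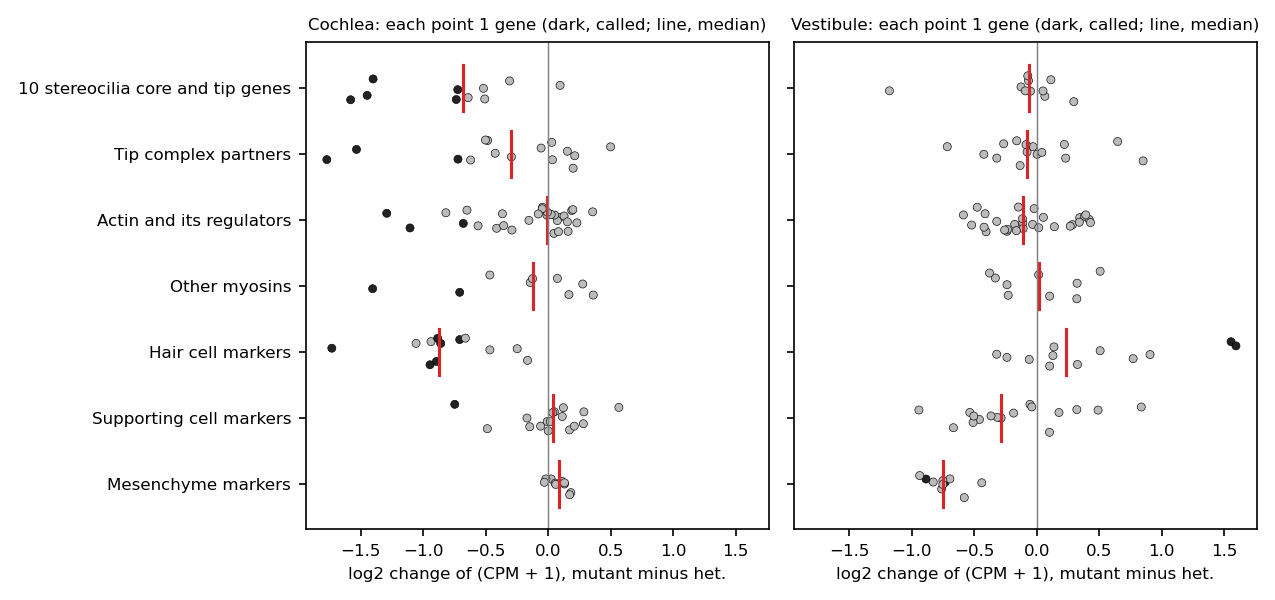
Log2 change of (CPM + 1), mutant minus heterozygote, of each gene (point) in the 10 genes and in lists of related genes and markers, cochlea left and vestibule right; dark points were called in limma and the red line is the list's median. The 10 genes have a median of -0.68 in the cochlea, near that of hair cell markers at -0.87, and of -0.06 in the vestibule, where mesenchyme markers stand at -0.75.

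The genes whose levels ran most like the mean of the 10 were ranked over the 12 libraries, each gene centred within its organ, among 9410 genes with a mean of at least 10 CPM in each organ. Kncn, which encodes kinocilin of hair cells, had the highest Pearson correlation (0.983), followed by Drc3 (0.977), Stra6 (0.975), Mn1 (0.972) and Cfap206 (0.972). In the cochlea all 5 fell, Kncn by 3.49 on the log2 scale, Drc3 by 1.36, Stra6 by 1.91, Mn1 by 0.76 and Cfap206 by 2.46. None was called in the vestibule, where their changes ran from -0.47 for Kncn to -0.04 for Drc3. Because these genes were chosen for running with that mean, which was lower in cochlear mutants, these directions follow from the choice. Among the 10 themselves, the correlation of a gene with the mean of the other 9 was highest for Espnl (0.88) and Myo15 (0.87) and lowest for Pls1 (0.64) and Eps8 (-0.32). Within the 6 cochlear libraries the values were -0.38 for Eps8, 0.67 for Pls1 and from 0.90 for Myo15 to 0.99 for Myo3b among the others. Within the 6 vestibular libraries the order was another: Myo3b was at -0.86, Xirp2 at -0.57 and Eps8 at 0.46, and the others ran from 0.16 for Myo3a to 0.49 for Fscn2. These correlations are descriptions over 12 libraries that share the genotype contrast, and carry no test.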

How the data were processed

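Ribosome-bound RNA was sequenced from 12 libraries, 3 per genotype and organ, with groups and replicate numbers taken from the sample titles. The deposited values are CPM, reads per gene scaled to the library's total, 1 table per library, per the file headers. TopHat and GRCm38 are named in the submitters' processing notes; the counting tool, its strand setting and its annotation are not given in the sources used here. All values (100%) were whole multiples of 1 read to within 1e-06, so read counts could be recovered.

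Genes reaching 1 CPM in 3 of an organ's 6 libraries were tested on log2(CPM + 1) with limma 3.58.1 and its trend option (R 4.3.3), with no block, and with Benjamini-Hochberg adjustment over all genes tested. Changes are mutant minus heterozygote on that scale, which understates low genes. The organs were compared by an interaction over 12 libraries. Ratios between 2 genes had an exact two-sided permutation test over 3 against 3 libraries, whose smallest p is 0.1. The limma fit without the block was tested on simulated counts of each organ, drawn with no link between same-numbered libraries. Libraries with the same replicate number, taken from the titles, deviated together. Their deviations from group means correlated at 0.226 to 0.420 for cochlear and 0.508 to 0.766 for vestibular libraries. The main fits and the ratio tests did not use this pairing, and the replicate block was an alternative. Blocked values are given where a call of the 10 genes, or a list's count by over 1.5 times, changed.

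As alternatives, the pseudocount was 0.25 or 4, the filter absent or 5 CPM, and there were fits with TMM and median-of-ratios scaling, edgeR 4.0.16 and DESeq2 1.42.0 on recovered reads (edgeR called 813, 524 and 516 genes in cochlea, vestibule and difference), the replicate block, a fit of 12 libraries, each library left out, and both cochlear replicate 3 or both vestibular replicate 1 libraries left out. Limma p-values set a change against the spread between these libraries, with each gene's variance drawn toward a trend over all genes. Named genes are the 10 genes, Gfi1, up to 4 genes per list and organ by smallest p, and the 6 whose levels ran most like the mean of the 10, leaving out predicted genes. Actb, Actg1 and Whrn were named after their values were seen. The genes and lists were chosen with earlier results of these data known. Coordinates and exon lengths are from GENCODE M21 on GRCm38, promoters from RefSeq. Figures were drawn with matplotlib 3.10.9.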

Additional observations from a re-analysis of the deposited data

Results flagged for a closer look

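The genotype effect differed between the organs for 2 of the 10 genes by the interaction term of limma. For Myo15 the cochlear change minus the vestibular change was -1.70 (SE 0.29, Benjamini-Hochberg adjusted p = 0.00338). For Myo3b it was -1.70 (SE 0.22, adjusted p = 0.000484). The sum of hair cell markers was lower in the mutant cochlea and higher in the mutant vestibule. Of the 12 markers, 6 were called lower in the cochlea, where 2.52% of tested genes were. In the vestibule 2 were called higher, where 2.41% of tested genes were, while Otof, Calb2 and Tmc1 had lower means in mutants. Limma without the block called neither Myo15 nor Myo3b in that organ. The part of the markers in the differences was not tested.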

How the results depend on the processing

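For the 10 genes, 146 of 170 values kept their direction and side of the threshold in the cochlea, 147 of 170 in the vestibule and 220 of 230 for the difference, and no value that changed sign was called in either setting. With the replicate block 1532 genes were called in the cochlea, 3634 in the vestibule and 1955 for the difference, against 794, 546 and 461 without it. The block called 8, 2 and 7 of the 10 genes, against 5, 0 and 2. DESeq2 called 955 genes in the cochlea, 1234 in the vestibule and 815 for the difference, and 8, 1 and 4 of the 10 genes. Its median difference for the 10 was -0.72. Without a filter 358 vestibular genes were called, and in the fit of all 12 libraries 848. Without both cochlear replicate 3 libraries the difference was called for 270 genes. In the vestibule 1 of the 10 genes, Myo3a, was called at a pseudocount of 4, with a filter of 5 CPM, with TMM scaling, in the fit of all 12 libraries and without both replicate 1 libraries. With single libraries left out, 530 to 777 genes were called in the cochlea, 216 to 510 in the vestibule and 300 to 449 for the difference, and 3 to 7, 0 to 1 and 2 to 3 of the 10 genes.

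Changes near 0 that turned their sign, none of them called, were Eps8 in the cochlea without mutant replicate 1 (-0.015; single libraries left out gave up to 0.24) or without both replicate 3 libraries (-0.0027), and the following in the vestibule. Myo15 was at -0.037 without mutant replicate 1 (up to 0.22 with others left out) and -0.062 without both replicate 1 libraries. Eps8l2 was at -0.0018 without heterozygote replicate 3, -0.085 without mutant replicate 1 (others up to 0.14) and -0.030 without both replicate 1 libraries. Espn was at 0.10 without heterozygote replicate 1 and 0.03 without mutant replicate 3 (others down to -0.21). Espnl was at -0.015 without mutant replicate 1 (others up to 0.090) and -0.014 without both replicate 1 libraries. Fscn2 was at 0.0040 with edgeR, 0.0026 with DESeq2, 0.13 without heterozygote replicate 1, 0.03 without mutant replicate 2 and 0.11 without mutant replicate 3 (others down to -0.29). The cause was not tested. The replicate block changed no call of the 10 genes other than those given. Depth limits Fscn2 and Myo15 most in the cochlea, with as few as 82 and 85 reads.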

Other observations

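Relatives of these genes were also measured. In the cochlea 6 of 10 passed the filter and 1 was lower, Myo7a (-0.71, SE 0.14), where 2.52% of tested genes were lower. Eps8l3, Fscn3, Myo7b and Xirp1 were under 1 CPM in every cochlear library, and Fscn3 and Xirp1 in every vestibular one. Fscn1 and Pls3, the widely expressed fascin and plastin, changed by 0.04 (SE 0.22, limma adjusted p = 0.984) and 0.35 (SE 0.16, adjusted p = 0.372) in the cochlea, and the leukocyte plastin Lcp1 by -0.03 (SE 0.12, adjusted p = 0.982). In the vestibule Myo7b, a brush border myosin, was higher (1.40, SE 0.31, limma adjusted p = 0.0498), a call lost when any single library was left out. With the replicate block 2 of the 7 relatives tested there were higher and 2 lower, where 10.5% and 12.8% of tested genes were. Brush border markers summed to 2.60 to 3.06 CPM in vestibular heterozygotes and 2.69 to 3.99 CPM in mutants.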
